A study of Mus musculus with 9 samples.

Results

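Transcript levels of autosomal genes were compared between XY and XO oocytes in the growth phase. The genes were those whose deposited coordinates lie on chromosomes 1 to 19, which are 26808 of the 28052 genes counted, and 10576 of them had enough unique molecular identifiers (UMIs) to be tested. The samples were 3 pools of XY and 3 pools of XO oocytes out of 9 in the series, and the 3 XX pools entered the fits but not the contrast. Each pool held 30 oocytes, 10 of 50 to 55 µm and 20 of 55 to 60 µm in diameter, from ovaries at 18 days postpartum, and the labels give C57BL/6 as the strain. XY females carried the Y chromosome of B6.YTIR males, on which gonads develop as ovaries, and XX females were their littermates. XO females had no second sex chromosome and came from Paf carrier males of C3H/HeSnJ origin that had been backcrossed to B6. The cross of origin and the sex chromosome complement therefore cannot be told apart between XO and XY oocytes. The oocytes are called biological triplicates in the labels without naming the animals, so p-values measure the spread between these pools. In pooled cells, less RNA per oocyte and fewer oocytes holding a transcript cannot be told apart.

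A growing oocyte transcribes and stores the RNA and protein that it will use at meiotic maturation, fertilization and the first divisions, when its own transcription is silent. The stored RNA covers general machinery, such as ribosomes, mitochondria and proteasomes, and oocyte products such as the zona pellucida, the glycoprotein coat of the egg. The oocyte also exchanges signals and metabolites with the surrounding granulosa cells, to which it is held by cadherins and catenins.

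UMIs on genes numbered between 2130145 and 3157338 per sample. Levels are given as normalized CPM, the UMI count scaled by the gene total and by a factor from the ERCC spike-ins. These are RNAs added in known amounts. The factor is a trimmed mean (TMM) among spike-ins within their own total, not the ratio of gene to spike-in UMIs. Spike-ins took 0.311 to 0.862% of all UMIs in XO and XY samples. XO2, at 0.356%, had a factor of 0.847 and XO3, at 0.369%, of 0.703. The scale therefore does not give RNA per oocyte. XO1 stood apart from the other XO samples, with a mean Spearman coefficient to them of 0.646 over all tested genes. Mitochondrial transcripts took 13.1% of the UMIs in XO1 and 10.8% in XY1, against 2.65 to 6.02% in the other 7 samples. Results that rest on XO1 are therefore given with and without it. The oocyte label was checked on 18 markers of growing oocytes, all of which had UMIs in XO and XY samples and which summed to 19000 to 59900 normalized CPM in XO samples and to 20400 to 27900 in XY samples. Markers of other cells were used where the counted genes include them, which held for 14 of 18 listed for granulosa cells, 7 of 8 for theca, 6 of 12 for stroma and smooth muscle, 4 of 8 for endothelium, 5 of 14 for blood and immune cells and 5 of 8 for the ovarian surface epithelium. The 14 granulosa cell markers summed to 84.4 to 138 normalized CPM in XO and 76.2 to 130 in XY samples, and the 7 theca markers to 14.1 to 19.6 and 13.7 to 15.3. The lists for stroma and smooth muscle (16.6 to 90.9 in XO and 12.1 to 32.9 in XY samples), endothelial cells (20.7 to 146 and 37.6 to 69.4), blood and immune cells (3.11 to 24.8 and 7.9 to 15.1) and the ovarian surface epithelium (9.32 to 92 and 6.51 to 24.5) were each lowest in XO1 or XY1 and highest in XO3. In the lists for stroma and for blood 1 counted marker each had no UMI in XO and XY samples. Of the marker genes of other cells, Hsd3b1 and Aldh1a2 were called, both lower in XY samples, though not without XY3 for the first and not without XO2, XO3, XY1 or XY2 for the second. The part of the mitochondrial share and of these markers in the results was not tested.

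With the spike-in factors and no block, 165 autosomal genes were higher and 885 were lower in XY than in XO oocytes by edgeR's quasi-likelihood test at an unadjusted p below 0.05, which are 1.56 and 8.37% of those tested. None passed a Benjamini-Hochberg adjusted p of 0.05 in this fit, where the smallest was 0.123. The study, at the same threshold in limma with surrogate variables, counted far more autosomal genes higher than lower in XY oocytes. That is the opposite direction. Here limma-voom with surrogate variables gave 713 higher and 2281 lower. The cause of this difference from the study was not tested. With the replicate number as a block, 250 genes were higher and 1521 were lower (2.36 and 14.4%). XO and XY samples of the same number deviated together from the means of their genotypes, with coefficients of 0.83, 0.278 and 0.773 across genes. The direction of the calls turned on the scaling. With factors from the genes themselves (TMM), 557 genes were higher and 395 were lower (5.27 and 3.73%), or 846 and 803 with the block as well. The median log2 difference of all tested autosomal genes was -0.30 with the spike-in factors and -0.03 with TMM factors. It was 0.124 with gene totals alone. In DESeq2 with its own factors from the genes it was -0.158, with 305 genes higher and 773 lower. How far a transcript at the median counts as lower in XY oocytes therefore depended on the scale.

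Since the scale and the block decide so many calls, genes called in the same direction in all 3 fits (spike-in factors, replicate block, TMM factors) were followed. These were 157 genes higher and 394 genes lower in XY oocytes, which are 1.48 and 3.73% of those tested. The 2 sets differed in how the samples lay. Of the genes that were higher, 145 had every XY sample above every XO sample, and 153 were higher in XY in all 3 pairs of the same number. Of the genes that were lower, 154 had every XY sample below every XO sample, whereas XO1 lay below the lowest XY sample in 79 and among the XY samples in another 157. Without regard to any test, XY and XO samples did not overlap in 3.77% of the tested genes with XY above and in 6.4% with XY below. For a gene that does not differ, 3 against 3 samples have a probability of 0.1 of no overlap in either direction. The 2 shares together are near that, so lack of overlap alone does not mark a gene as different.

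**Figure D1:**
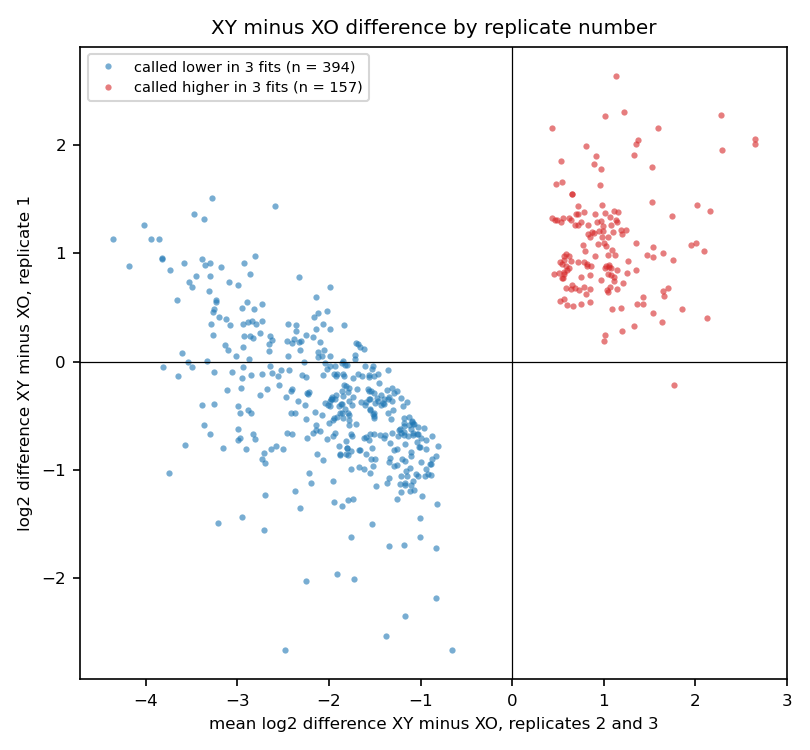
Each point is 1 autosomal gene called in 3 fits, with the mean log2 difference XY minus XO of replicates 2 and 3 on the x axis and that of replicate 1 on the y axis (log2 of normalized CPM + 1). The 157 genes called higher lie above 0 on both axes with few exceptions, while the 394 genes called lower reach below -4 on the x axis but spread around and above 0 on the y axis.

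Transcripts that were higher in XY oocytes included a pair of overlapping genes and a potassium channel, which had the largest differences, and a histone demethylase. Evi2b, which encodes a membrane protein known from blood cells, had 3.62, 3.62 and 3.95 normalized CPM in the XO samples and 21.4, 15.9 and 31.1 in the XY samples. Its level was 6.06-fold higher in XY oocytes, a log2 difference of 2.60 ± 0.40 (SE), with an edgeR p of 8.95e-05 and an adjusted p of 0.123. The XX samples had 3.56, 1.75 and 3.35 normalized CPM. No XO or XX sample reached the lowest XY sample.

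Evi2b lies within the span of Evi2 on the minus strand of chromosome 11, and both lie within the span of Nf1, which is transcribed from the plus strand. Evi2 had 13.5, 8.79 and 10.7 normalized CPM in XO and 38.6, 30.9 and 58.0 in XY samples, a log2 difference of 1.95 ± 0.36. Nf1, which encodes neurofibromin, a negative regulator of RAS, had 50.7, 49.1 and 39.5 in XO and 81.3, 66.1 and 97.8 in XY samples, a smaller log2 difference of 0.81 on which the samples again did not overlap. A further gene, Evi2a, overlaps Evi2 on the same strand. UMIs of Evi2, Evi2a and Evi2b share a strand, so how they were divided among these genes is uncertain. Whether Evi2 and Evi2b were raised separately is therefore uncertain too.

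Kcnj13, an inwardly rectifying potassium channel, had 21.7, 9.82 and 10.7 normalized CPM in XO samples and 93.9, 61.5 and 79.1 in XY samples. The log2 difference was 2.46 ± 0.50 and the edgeR p was 0.00064. XX samples held 12.1, 20.0 and 5.48 normalized CPM, within or below the range of XO samples. Kcnj13 is nested in Gigyf2 on the opposite strand, and Gigyf2 did not pass the test (log2 difference 0.46, with an edgeR p of 0.182).

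Kdm5b, a demethylase of trimethylated H3K4 and a homolog of the sex-linked Kdm5c and Kdm5d, had 13.5, 18.1 and 35.0 normalized CPM in XO and 49.3, 67.4 and 83.3 in XY samples. The log2 difference was 1.59 ± 0.40, and the groups did not overlap. The study describes reads of Kdm5b in these oocytes over its last exons alone, so these levels are not those of a full-length transcript. Its autosomal homolog Kdm5a had 44.5, 21.7 and 26.0 in XO and 43.7, 25.7 and 31.4 in XY samples, with a log2 difference of 0.12 that did not pass the test (edgeR p of 0.732). Of the 15 tested writers and erasers of H3K4 methylation, Kdm5b was the only one called higher with spike-in factors, and Kdm1b and Rbbp5 were called lower there but not with TMM factors. The call was lost for Kdm1b without XY2 and for Rbbp5 without XO1 or any XY sample. The lower calls of this list became 5 with the block and 5 without XO1, and 1 and 0 without XY1 and XY2.

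The 250 bases before the RefSeq start of Evi2b, Evi2 and Kcnj13 (GRCm38.p6) are shown because the leading genes include overlapping genes that were higher together. The window named Evi2 begins at 79530610, next to the Gencode end of Evi2a (79530609) and not to that of Evi2 (79530589). Capitals mark the letters of 4 motifs on either strand, at any distance from the start. These are TATAAA of the TATA box, the box known as CCAAT, the GC box (written GGGCGG) and the E-box (with the letters CACGTG). No match overlapped another.
Evi2b, chr11:79523763-79524012, minus strand: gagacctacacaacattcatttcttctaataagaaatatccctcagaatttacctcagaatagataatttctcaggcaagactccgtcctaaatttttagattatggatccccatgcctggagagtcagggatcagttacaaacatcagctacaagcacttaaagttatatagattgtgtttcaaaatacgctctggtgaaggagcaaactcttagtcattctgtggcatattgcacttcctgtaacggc
Evi2, chr11:79530610-79530859, minus strand: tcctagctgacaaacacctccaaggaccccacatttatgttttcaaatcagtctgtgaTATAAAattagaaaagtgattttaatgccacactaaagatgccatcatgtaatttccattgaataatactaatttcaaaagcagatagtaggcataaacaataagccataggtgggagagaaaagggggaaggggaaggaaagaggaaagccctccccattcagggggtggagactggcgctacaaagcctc
Kcnj13, chr1:87394730-87394979, minus strand: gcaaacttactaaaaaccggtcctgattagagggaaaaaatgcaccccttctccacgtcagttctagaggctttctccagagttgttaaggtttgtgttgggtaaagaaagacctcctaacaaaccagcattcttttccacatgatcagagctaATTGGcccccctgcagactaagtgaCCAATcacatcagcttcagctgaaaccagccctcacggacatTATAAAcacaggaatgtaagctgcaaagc
TATAAA was found in Evi2 and Kcnj13, and in 12.4% of all 32851 RefSeq promoters over the same length. It lay far from the start in Evi2 and near it in Kcnj13, and whether either match acts as a TATA box was not tested. CCAAT was found at 2 places in Kcnj13, where 33.8% of promoters hold it at least once, while GGGCGG was in none of the 3 and in 32.7% of all promoters. CACGTG, the E-box to which MAX dimers bind, was in none of the 3 and in 6.02% of all promoters. The windows of Evi2b and Evi2 shared none of these letters, and their GC content was 38.8 and 41.6%.

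The other leading genes that were higher in XY oocytes had lower levels or smaller differences. Ttc39a, a tetratricopeptide repeat gene, had 8.28, 8.79 and 16.9 normalized CPM in XO and 40.4, 30.9 and 49.5 in XY samples, and with TMM factors it and Evi2b had adjusted p-values of 0.0406 and 0.0351. Prss37, a protease-like gene known from the testis, had 8.80, 7.24 and 9.60 in XO and 35.8, 18.2 and 27.8 in XY samples. Max, the dimerization partner of MYC proteins, had 2.59, 4.14 and 10.7 in XO and 21.4, 12.7 and 20.2 in XY samples. None of these genes had an XO sample at or above its lowest XY sample.

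Single genes of cell survival (Cflar) and cell division (Anapc11) were also among the leading ones. Of 14 tested genes of the BCL2 family and caspases, 0 were higher and 1 was lower (7.14%) with spike-in factors and no block. Cflar, an inhibitor of caspase 8, had 69.9, 20.7 and 32.7 normalized CPM in XO and 146, 72.6 and 83.0 in XY samples, where the highest XO sample was close to the lowest XY sample. P2rx7, an ATP-gated ion channel, had 12.9, 6.20 and 3.39 in XO and 21.4, 19.2 and 15.7 in XY samples. Anapc11, the RING subunit of the anaphase promoting complex, had 4.14, 8.79 and 5.08 in XO and 8.83, 19.5 and 15.7 in XY samples, and it was called although XO2 and XY1 were almost equal. Vrk2, a serine/threonine kinase, was the only one of the 14 leading genes whose groups overlapped, with 8.80 in XO1 and 7.44 in XY1.

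Hook2, a microtubule adaptor, Gna15, a G protein subunit, and Cct6b, a subunit of a chaperonin known from the testis, completed the 14, with log2 differences of 1.34 ± 0.46, 1.29 ± 0.49 and 1.26 ± 0.48. All 14 kept their direction under every alternative scaling, filter, test and left-out sample. The 4 largest, with Prss37, also kept p below 0.05 under each of them. Without XO2 the call was lost for 6 of the 14 (Hook2, P2rx7, Vrk2, Gna15, Cflar and Cct6b), without XO3 for 5 (P2rx7, Gna15, Anapc11, Cflar and Cct6b), without XY1 for 5 (Hook2, P2rx7, Gna15, Cflar and Cct6b), without XY2 for 4 (P2rx7, Vrk2, Anapc11 and Cct6b) and without XY3 for Vrk2. Without the samples numbered 2 it was lost for 9, which are those 7 with Max and Kdm5b. Without the samples numbered 3 it was lost for 6, and without those numbered 1 for 1.

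**Figure D2:**
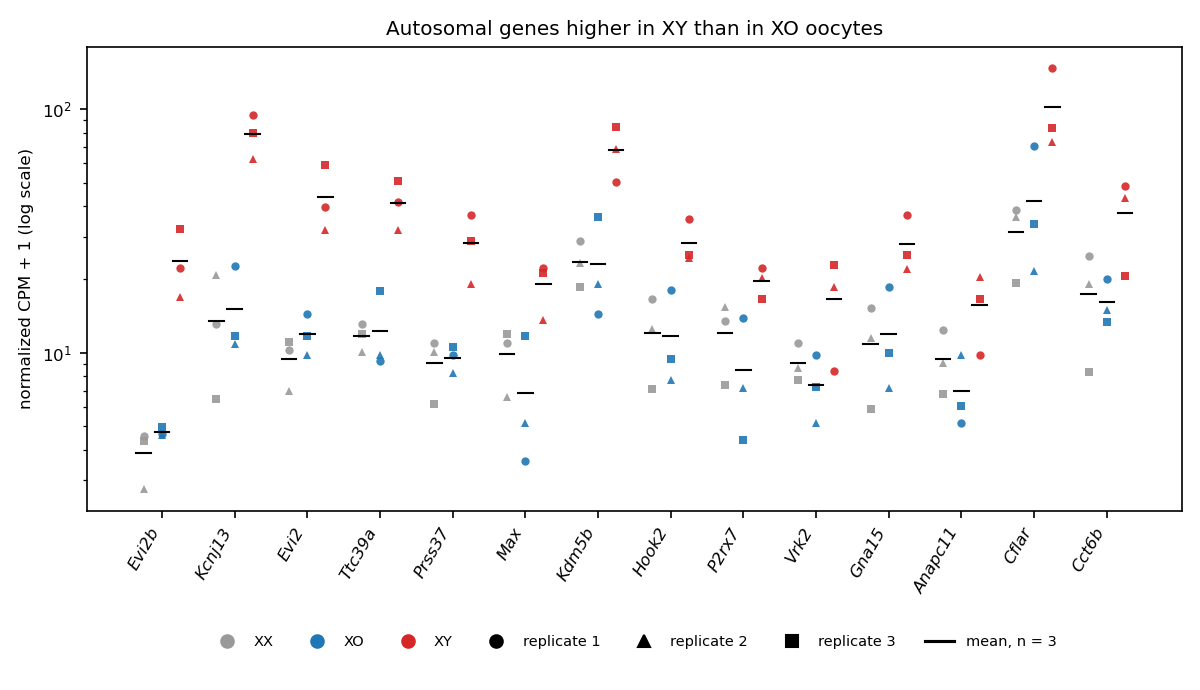
Normalized CPM + 1 on a log axis for the 14 named autosomal genes with the largest positive log2 difference, in order from the left. Points are samples, shapes are replicate numbers, colours are genotypes and bars are means of 3. In 13 of the 14 genes all XY points lie above all XO points, and only in Vrk2 do they overlap.

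The named genes that were lower in XY oocytes were taken by 2 rules, the largest folds and the smallest p without overlap of samples. The largest folds belonged to general and oocyte-specific transcripts that were abundant in XO2 and XO3 but not in XO1. Ubb, a polyubiquitin gene, had 58.0, 3153 and 7009 normalized CPM in the XO samples and 114, 239 and 458 in the XY samples. Its log2 difference was -3.66 ± 1.24, although XO1 lay below every XY sample. Zp1, a zona pellucida glycoprotein, had 13.98, 759 and 2166 in XO and 26.0, 70.6 and 129 in XY samples. H1foo, the oocyte linker histone, had 15.5, 856 and 2576 in XO and 30.2, 86.3 and 175 in XY samples. In each of these genes the XO mean was carried by XO2 and XO3, and XO1 was the lowest of the 6 samples. The XX samples had 144, 149 and 273 normalized CPM of Ubb and 49.15, 47.97 and 112 of Zp1. They had 96.9, 85.4 and 155 of H1foo, and in each gene they lay within the range of the XY samples. For these genes, lower in XY therefore means that XO2 and XO3 stood above XX and XY samples alike.

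Tuba1c, an alpha tubulin, had 20.2, 468 and 1284 in XO and 19.5, 36.8 and 79.7 in XY samples. The other genes named by the first rule were Elof1, a transcription elongation factor, the glutathione transferases Gstt2 and Gstp1, and the ribosomal protein genes Rps9, Rps14 and Rpl19. Upp1, a uridine phosphorylase, Ctnnbl1, a splicing factor, and Atp5g1, a subunit of ATP synthase, completed them. The log2 differences of these genes ran from -3.58 to -4.35. Within replicates 2 and 3 all 13 were higher in XO than in XY, and without the samples numbered 2 none of the 13 passed the test. Without the samples numbered 3, only 10 of the 13 could be tested, and 6 of these lost the call. Without XO3 the call was lost for 9 of the 13, the exceptions being Elof1, Upp1, Tuba1c and Ctnnbl1. Without XY1 or XY2 it was lost for Zp1, Rps14, Ubb, Rpl19 and H1foo.

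The second rule required every XY sample to lie below every XO sample, so the place of XO1 above them is no result. The folds of these genes were smaller. The genes named here were chosen after their values were seen, as the named genes of smallest p among those called in 3 fits without overlap. Ctnnb1, which encodes β-catenin and binds cadherins at adherens junctions, had 77.1, 65.7 and 80.7 normalized CPM in XO samples and 33.5, 31.2 and 37.4 in XY samples. The XO mean was 2.19-fold that of XY oocytes, a log2 difference of -1.13 ± 0.25 with an edgeR p of 0.00119. The 3 XX samples had 43.5, 35.7 and 32.6, near the XY values. XO1 lay between the other XO samples here, unlike in the genes above.

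Atf4, the transcription factor made when eIF2 is phosphorylated, had 40.4, 39.8 and 48.0 normalized CPM in XO and 21.4, 13.4 and 20.8 in XY samples, a log2 difference of -1.21 ± 0.28. Uchl1, a deubiquitinating enzyme abundant in oocytes, had 17.6, 16.0 and 23.1 in XO and 7.44, 7.81 and 9.06 in XY samples. Kpna7, an oocyte importin, had 40.4, 34.1 and 66.6 in XO and 17.7, 14.6 and 18.4 in XY samples. Fbxl13, an F-box gene, had 22.8, 31.5 and 40.7 in XO and 7.44, 11.1 and 12.4 in XY samples. In none of these genes did an XY sample reach an XO sample, as the rule requires.

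In some of these genes the XO samples themselves lay far apart, with XO1 lowest. Atp5o, a subunit of ATP synthase, had 49.7, 76.0 and 173 normalized CPM in XO and 30.2, 20.8 and 26.3 in XY samples. Ndufb4, a subunit of complex I, had 21.8, 24.8 and 56.4 in XO and 8.37, 7.81 and 12.98 in XY samples. Egln1, a prolyl hydroxylase that senses oxygen, had 7.77, 24.3 and 32.7 in XO and 3.72, 1.63 and 6.34 in XY samples. In Slc10a6, a transporter of steroid sulfates, XO1 and XY1 were close, at 4.66 and 3.72. Frem3, Fam160a1, Vmn2r87, Naalad2 and Heatr4 completed the 14, with log2 differences from -1.11 to -1.82. All 14 kept p below 0.05 without any single XO or XY sample, and without the samples numbered 2 the call was lost for 4 of them (Frem3, Vmn2r87, Heatr4 and Slc10a6).

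**Figure D3:**
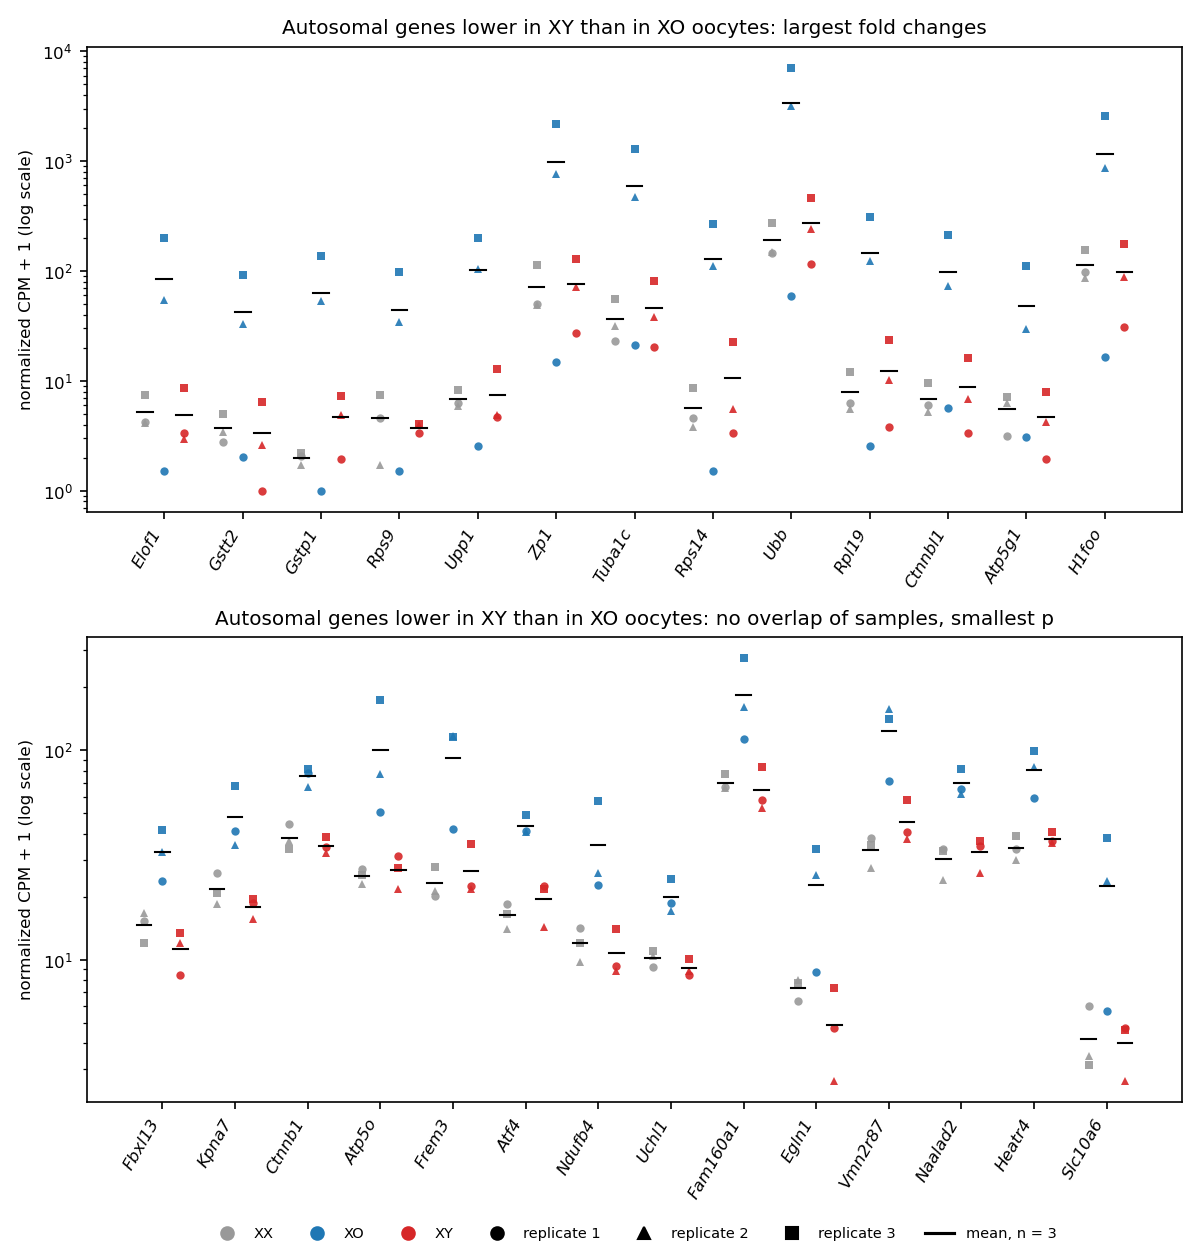
Normalized CPM + 1 on a log axis for autosomal genes that were lower in XY oocytes, with 13 of the largest folds above and 14 genes without overlap between XO and XY samples below. Points are samples, shapes are replicate numbers, colours are genotypes and bars are means of 3. In the upper panel XO1 (blue circles) lies with or below the XY samples, and in the lower panel it lies above them, as the rule of no overlap requires.

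Gene lists were described by the number of their members that were called, to be read against 8.37% lower and 1.56% higher among all autosomal genes tested. Most of the lists had a share of lower calls above 8.37%, so passing it does not set a list apart. Leaving out XO1 raised the number called lower among these genes from 885 to 2900, whereas leaving out XO3, XY1 or XY2 reduced it to 253, 457 or 246. The counts of the lists moved with them and are given beside most of the lists described. Beyond the called members with the smallest p, members named for lying without overlap, for the opposite direction or for missing the test were chosen after their values were seen.

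Cytosolic ribosomal protein genes were the largest list with many calls. Of 64 tested, 20 were lower in XY oocytes (31.2%) and none was higher, 18 were lower with TMM factors, and the median log2 difference of the list was -1.10 against -0.30 over all genes. Rpl27 had 6.21, 16.0 and 45.7 normalized CPM in XO and 4.18, 3.58 and 5.13 in XY samples, and Rps21 and Rps23 likewise did not overlap. Rpl23a, with the smallest p, had 13.5, 61.5 and 157 in XO and 7.90, 8.46 and 16.0 in XY samples, where XO1 lay below XY3. Groups did not overlap in 5 of the 20. The number called lower was 38 without XO1, 5 without XO3 and 10 without XY1 or XY2. Ribosomal protein genes have many processed pseudogenes, so the division of their UMIs is uncertain.

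Mitochondrial genes were described in 3 lists, for respiration, translation and import. Of 57 nuclear genes of oxidative phosphorylation, 14 were lower (24.6%), 7 were lower with TMM factors, and Ndufc2 was higher, with 10.9, 9.31 and 12.98 normalized CPM in XO and 20.9, 18.2 and 22.3 in XY samples. Besides Atp5o and Ndufb4, Ndufa6 had 7.25, 4.65 and 6.21 in XO and 2.32, 2.28 and 3.02 in XY samples, though its call was lost without XY2. Cox7c, a subunit of cytochrome oxidase, had 24.3, 110 and 256 in XO and 14.4, 14 and 28.7 in XY samples, with overlap of XO1 and XY3. The list held 27 lower calls without XO1, 9 without XO2, and 5, 6 and 5 without XO3, XY1 and XY2. Of 49 mitochondrial ribosomal protein genes, 6 were lower (12.2%), and also 6 with TMM factors, 11 with the block, 21 without XO1 and 4 without XO3. Of 47 genes of mitochondrial dynamics, import and genome upkeep, 3 were lower (6.38%), also with TMM factors, and 1 was higher. Tomm20, an import receptor of the outer membrane, was the gene that was higher, with 20.7, 19.1 and 19.8 in XO and 36.2, 36.1 and 30.8 in XY samples. Timm9 and Timm10, chaperones of the intermembrane space that act in import, were lower, with log2 differences of -1.80 ± 0.49 and -3.39 ± 1.32. Timm9 had 51.3, 116 and 225 in XO and 46.9, 25.1 and 41.1 in XY samples and kept its call without any single sample, whereas that of Timm10 was lost without XO3, XY1 or XY2. The third was Twnk, the mitochondrial DNA helicase, and the lower calls of this list were 7 with the block and 14 without XO1.

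Genes of glycolysis and pyruvate use had 6 of 18 tested members lower (33.3%) and 2 with TMM factors. Pdp1, a phosphatase that activates pyruvate dehydrogenase, had 35.7, 30.5 and 38.4 normalized CPM in XO and 22.3, 19.9 and 12.7 in XY samples, and it was the only one of the 6 without overlap. Tpi1, triosephosphate isomerase, had 2.07, 66.7 and 159.8 in XO and 4.65, 8.14 and 13.6 in XY samples and was not called without XO3. The lower calls numbered 9 without XO1, 1 without XO3, and 3 without XO2, XY1 or XY2. An oocyte takes up pyruvate from granulosa cells and makes little use of glucose itself.

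Among lists of protein turnover, most lower genes of the proteasome and of autophagy had XO and XY samples that overlapped. Ubiquitin conjugation differed, with 4 of 30 tested genes lower (13.3%), all without overlap. With TMM factors 1 of the 30 was lower and 3 were higher. Lower calls of ubiquitin conjugation were 9 without XO1, 3 without XY1, and 2 without XO3 or XY2. Of 39 proteasome genes 9 were lower (23.1%) and 6 with TMM factors, and in Psmg4 alone, an assembly chaperone, XO samples (19.7, 10.3 and 16.4 normalized CPM) lay above all XY samples (8.83, 4.88 and 4.23). Psmb6, a catalytic subunit, had 1.04, 27.9 and 96.5 in XO and 2.79, 2.28 and 7.25 in XY samples and was not called without XO3 or XY2. Proteasome genes had 18 lower calls without XO1 and 2, 3 and 2 without XO3, XY1 and XY2. Of 34 genes of autophagy and the lysosome, 10 were lower (29.4%), 16 with the block and 3 with TMM factors. Atg16l1, which acts in the conjugation that extends the autophagosome, had 25.4, 25.3 and 48.0 in XO and 20.9, 13.02 and 15.1 in XY samples and was not called without XO3 or XY2. Atg7, the activating enzyme of that conjugation, had 2.59, 11.9 and 15.8 against 2.32, 1.95 and 3.92 and was not called without XO2, XO3, XY1 or XY2. This list had 18 lower calls without XO1, 5 without XO2, 0 without XO3 and 1 without XY1 or XY2.

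The factor eIF2 brings the initiator tRNA to the ribosome and has a sex-linked gamma subunit. Of 13 genes for eIF2, its exchange factor, its kinases and targets, 5 were lower (38.5%), namely Atf4, Eif2s2, Eif2ak3, Eif2ak4 and Eif2b1, and 8 did not pass the test. Groups did not overlap in 4 of the 5, and 3 were lower with TMM factors. Eif2s2 was the only called gene that encodes a subunit of eIF2 itself. Eif2s2, the beta subunit, had 221, 299 and 404 normalized CPM in XO and 138, 127 and 184 in XY samples, a log2 difference of -1.04 ± 0.32. Eif2ak3 and Eif2ak4, kinases that phosphorylate eIF2, had log2 differences of -1.40 ± 0.50 and -0.93 ± 0.33, and they were not called with TMM factors. Their calls were also lost without single samples, Eif2ak3 without XO1, XO2, XY1 or XY3 and Eif2ak4 without XO3 or XY2. Eif2ak3 was low, at 8.28, 7.24 and 4.52 in XO and 1.39, 3.58 and 2.42 in XY samples. Eif2b1, of the exchange factor, had 10.4, 101 and 335 in XO and 11.6, 15.9 and 25.4 in XY samples, with XO1 below XY1, and was not called without XO3. The list had 3 lower calls without XO3.

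Cell division genes were mostly called lower, and the few calls in the other direction depended on single samples. Of 33 genes of the spindle checkpoint and the anaphase promoting complex, 9 were lower (27.3%). Anapc11, whose call was lost without XO3 or XY2, and Trip13 were higher (6.06%). Mad2l1, which holds back anaphase until chromosomes are attached, had 137, 250.2 and 413 normalized CPM in XO and 76.7, 74.2 and 119.5 in XY samples, a log2 difference of -1.56 ± 0.42. Trip13, the ATPase that dismantles the checkpoint complex, had 9.84, 10.9 and 9.60 in XO and 16.7, 20.5 and 13.6 in XY samples, and its call was lost without XO1, XO3, XY1 or XY2. The lower calls were 3 with TMM factors, 15 without XO1, 4 without XO2, 3 without XO3 and 2 without XY1 or XY2. Of 55 genes of the spindle, kinesins and tubulins, 11 were lower (20%) and the kinesins Kif1b and Kif3a were higher (3.64%), both without overlap. The call of Kif1b was lost without XO2, XO3, XY1 or XY3, and that of Kif3a on leaving out any 1 of the 6 samples but XY1. Tubb2a, a beta tubulin, had 31.6, 40.8 and 66.6 in XO and 16.3, 17.9 and 28.4 in XY samples. Lower calls in that list were 5 with TMM factors, 22 without XO1, 3 without XO3, 6 without XY1 and 2 without XY2.

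Of 29 genes of H3K9 and H3K27 methylation, 5 were lower (17.2%), 4 of them without overlap, and 24 did not pass the test. With TMM factors 1 was lower. Of 29 genes of histone acetylation and deacetylation 5 were lower as well, 2 of them without overlap, and of 45 genes of chromatin remodelers 3 were (6.67%). With TMM factors 2 acetylation genes and 0 remodelers were lower. Acetylation genes had 10 lower calls without XO1, 0 without XO3 and 2 without XY1 or XY2. Remodelers had 11 without XO1, 1 without XY1 and 0 without XO3 or XY2. Eed and Suz12, core subunits of Polycomb repressive complex 2, had 93.2, 71.9 and 83.0 and then 100.4, 82.2 and 94.8 normalized CPM in XO samples, and 53.0, 40.7 and 48.6 and then 60.4, 46.9 and 45.6 in XY samples. The XX samples had 46.3, 47.3 and 44.8 of Eed and 67.0, 43.1 and 59.7 of Suz12, below every XO sample. The log2 differences of Eed and Suz12 were -0.80 ± 0.24 and -0.86 ± 0.27. Both genes kept the call without any single sample, but missed the threshold with TMM factors (edgeR p of 0.0594 and 0.053). Ezh2, the catalytic subunit, did not pass the test (log2 difference 0.02, with an edgeR p of 0.963), with XO1 at 576 and XY1 at 496. Without XO1 the list of H3K9 and H3K27 methylation had 10 lower calls, and it had 3, 2, 3 and 2 without XO2, XO3, XY1 and XY2.

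Among 18 genes of DNA methylation and imprint protection, Tet3, Kdm1b and Setd2 were lower (16.7%), none of them with overlap. Tet3, which oxidizes 5-methylcytosine in the zygote, had 150.2, 161 and 207 normalized CPM in XO and 83.7, 67.4 and 106 in XY samples and was also lower with TMM factors. Kdm1b, a demethylase of H3K4 needed for maternal imprints, had 266, 186 and 207 in XO and 142, 101 and 125 in XY samples. Kdm1b lost its call without XY2, and Setd2 without XO2, XO3, XY1 or XY2. With the block 5 members were lower. The count was 10 without XO1, 2 without XO2, XO3 or XY1, and 1 without XY2. Dnmt1, the maintenance methyltransferase, did not pass the test (log2 difference -1.48, with an edgeR p of 0.0987), with 269, 2395 and 3529 in XO samples.

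Of 17 genes for adhesion and coupling to granulosa cells, 5 were lower (29.4%) and Itgb1, integrin β1, was higher, at 25.9, 29.5 and 29.9 normalized CPM in XO and 38.6, 42.3 and 44.1 in XY samples. The call of Itgb1 did not survive leaving out any 1 of the 6 samples. Besides Ctnnb1, Itga6 and Nectin3 were lower without overlap with the spike-in factors, though not called with TMM factors. The call was lost for Itga6 without XO3, XY1 or XY2 and for Nectin3 without XO2, XO3, XY2 or XY3. Cdh2, N-cadherin, had 3.62, 16.0 and 41.2 in XO and 4.65, 3.25 and 5.43 in XY samples, with XO1 among the XY values, and was not called without XO3 or XY2. Cdh1, E-cadherin, did not pass the test (log2 difference -0.52, with an edgeR p of 0.185). The study lists both Cdh1 and Cdh2 among genes that did not differ between the genotypes. The list held 2 lower calls with TMM factors, 9 without XO1, 3 without XO2 or XY1, and 1 without XO3 or XY2. Gja4, the connexin of the oocyte gap junction, and Gja1, that of granulosa cells, had too few UMIs to be tested, with 2, 16 and 41 UMIs of Gja4 in XO and 0, 8 and 1 in XY samples.

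Transcripts typical of oocytes were described by a list of markers and a list of transcription factors. Of the 17 tested growing oocyte markers, 7 were lower (41.2%), 6 with TMM factors, and none of the 7 without overlap, while 10 did not pass the test. Gdf9, a growth factor secreted by the oocyte, had 339, 869 and 2432 normalized CPM in XO and 234, 264 and 350 in XY samples, where XO1 was just below XY3. Tcl1, of a family of AKT coactivators, had 19.2, 833 and 2005 in XO and 32.5, 79.1 and 155.5 in XY samples and was not called without XO3, XY1 or XY2. Zp2, the most abundant of the zona genes here, did not pass the test (log2 difference 0.20, with an edgeR p of 0.737), with 4919, 14840 and 16250 in XO and 10050, 16340 and 14910 in XY samples. The 7 lower calls became 11 without XO1 and 1 without XO3, XY1 or XY2. Of 26 oocyte transcription factors, 5 were lower (19.2%), among them Nobox with overlap and Bnc1, Nfyc and Sall4 without. With TMM factors only Nobox was called. Leaving out XO3, XY1 or XY2 ended the call of each of these 4 genes, as XO2 did for all but Nobox and XY3 for Nfyc and Bnc1. The list had 10 lower calls without XO1, 2 without XO2 and 0 without XO3, XY1 or XY2.

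Of 17 tested ion channel genes, Kcnj13 was higher and 3 were lower (17.6%), all without overlap. Kcnn2, a calcium-activated potassium channel, had 22.3, 36.7 and 44.6 normalized CPM in XO and 10.7, 7.81 and 16.0 in XY samples and was lower with TMM factors as well. Kcnh1 and Kcnq1, voltage-gated potassium channels, had log2 differences of -0.83 ± 0.28 and -0.86 ± 0.32 and were called with the spike-in factors alone or with the block. The calls were lost for Kcnh1 without XO2 or XY2 and for Kcnq1 without XO3, XY2 or XY3, and the list had 8 lower calls without XO1, 2 without XO3 or XY3 and 1 without XY2. Some other lists lay near or below the background. These were the spliceosome with 4 of 48 lower (8.33%) and messenger RNA decay with 2 of 38 (5.26%), among others. The PI3K and mTOR pathway had 2 of 33 (6.06%) and cohesin and the meiotic axis 2 of 31 (6.45%).

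Larp6 and the genes used as references had further values of interest. Larp6, an RNA-binding protein, was lower in XY oocytes, with 9.84, 2.59 and 2.82 normalized CPM in XO and 2.32, 0.326 and 0.604 in XY samples, which rest on 5, 1 and 2 UMIs in XY samples. The call was lost without XO1, without XY2 and without XY3. Ppia, a peptidyl-prolyl isomerase, had 69.9, 57.4 and 163 in XO and 46.9, 39.1 and 45.6 in XY samples and passed the test (edgeR p of 0.0199), though not without XO3 or XY2. Tubb5, a beta tubulin, did not pass (edgeR p of 0.0692). The study had picked Ppia and Tubb5 as genes of high and steady level across the genotypes. Ptk2, Zfp36l2 and Tbpl2 had log2 differences of -0.56, -0.27 and -0.54 and did not pass the test either. Without XO1, Tubb5, Ptk2 and Cdh1 were called lower, at log2 differences of -1.03, -0.84 and -0.80. The differences of Zfp36l2 and Tbpl2 changed sign without XO1, to 0.12 and 0.24, and that of Kdm5a was 0.49, none of which passed the test.

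The 3 groups of genes called in 3 fits differed in features that the rule did not use. Protein-coding genes were 68.4% of those higher, 93.5% of those lower without overlap and 86.7% of those lower with overlap, against 80.5% of all tested. The median span of the gene was 26.4, 22.3 and 14.5 kb in the same order and 28.5 kb over all tested, and the median GC content of the longest transcript was 47.6, 47.3, 50.3 and 47.2%. Genes that were lower and whose samples overlapped, such as Zp1 and H1foo, thus had the shortest median span and the highest median GC content. Calls came from every autosome, between 0.439 and 2.47% of tested genes being higher and between 6.25 and 10.9% lower per chromosome. These are descriptions without a test.

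**Figure D4:**
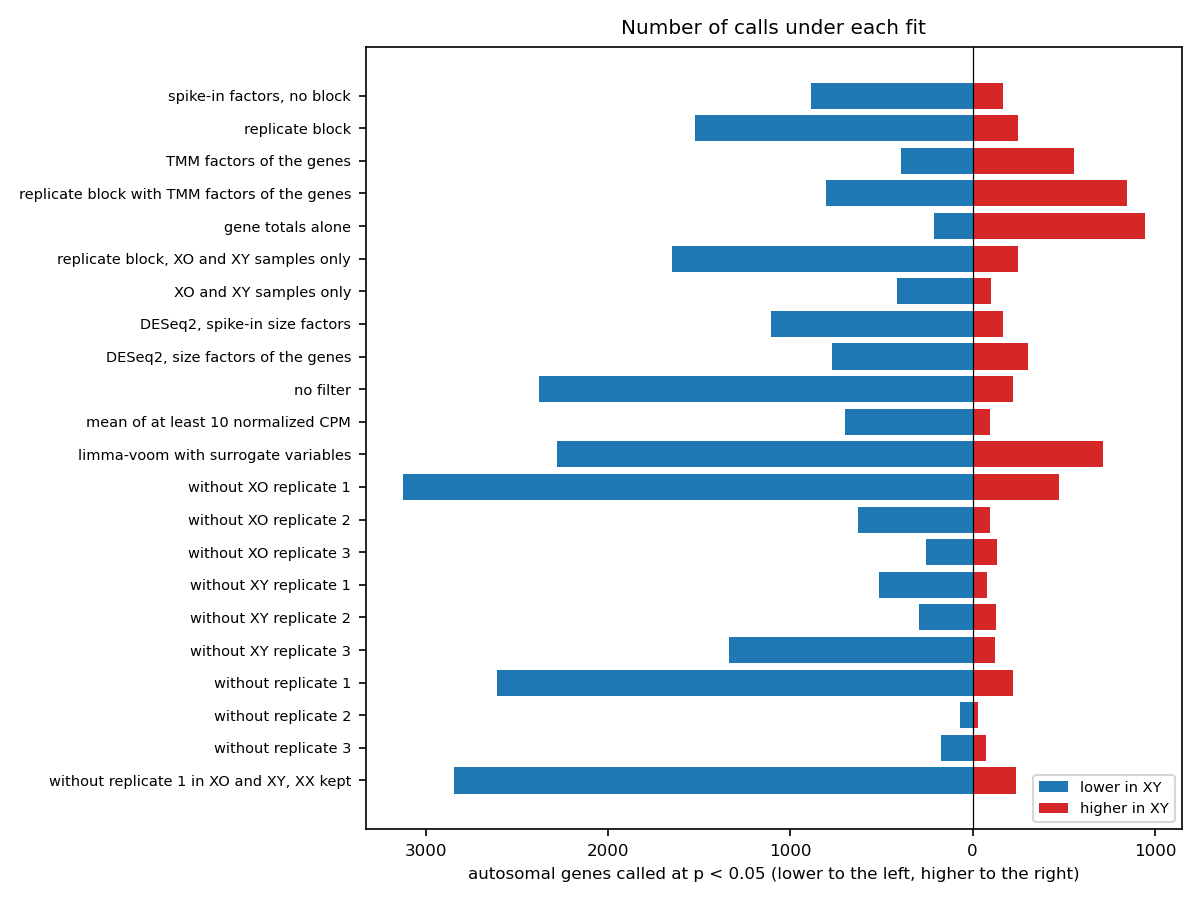
Number of autosomal genes called lower (bars to the left) and higher (bars to the right) in XY than in XO oocytes at an edgeR, DESeq2 or limma p below 0.05 under each fit. Lower calls range from 69 without replicates 2 to 3125 without XO replicate 1, and higher calls exceed lower calls with TMM factors, with or without the block, and with gene totals alone.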

How the data were processed

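The authors made Smart-seq3 libraries with ERCC spike-ins, aligned the reads with Hisat2 to GRCm38, and deposited UMI counts per gene of 5′ exons, which were analysed here. They also deposited a signal called normalized CPM, scaled by gene totals and by TMM factors of the spike-ins. It was recomputed from the counts and differed by at most 4.9e-11. A deposited matrix of log2 values gave gene coordinates only, since batch effects had been regressed out of its values.

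All 9 samples, 3 per genotype, were fitted with edgeR 4.0.16 (quasi-likelihood test, filterByExpr, 1 mean per genotype, authors' spike-in factors), two-sided, at an unadjusted p of 0.05 as in the study, with 10993 genes tested and adjusted p-values over all of them. UMIs on genes numbered 2130145 to 3157338 per sample. The column named XO was taken as XO1. The replicate block, TMM factors, DESeq2 1.42.0, limma 3.58.1 with sva 3.50.0 (1 surrogate variable), other filters and left-out samples were alternatives. Scripts were tested on simulated data. Pairing by number rests on the correlation of deviations (0.83, 0.278 and 0.773 for XO with XY, but 0.468, -0.447 and 0.679 for XX with XO and 0.435, -0.0595 and 0.726 for XX with XY, so number 2 did not pair XX with the others), since the labels do not say what a number marks.

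Named genes were the 14 largest differences in each direction among genes called in 3 fits (spike-in factors, replicate block, TMM factors) whose normalized CPM averaged 10 or more across XO and XY samples and which carry an assigned name, the members of each list with the smallest p, and autosomal genes that the study names. One gene that the rule on the largest differences selects is not reported here. Members and lists were chosen with earlier results of these data known. Promoters are from RefSeq (GRCm38.p6), which held 42 of 51 named genes, and gene features from Gencode vM21.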

Additional observations from a re-analysis of the deposited data

How the results depend on the processing

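The counts of autosomal genes called higher and lower in XY oocytes were 165 and 885 with spike-in factors and no block. They were 250 and 1521 with the replicate block, 557 and 395 with TMM factors, 846 and 803 with both, 945 and 211 with gene totals alone, 247 and 1648 with the block in XO and XY samples only, and 99 and 414 in these 6 samples without it. DESeq2 gave 164 and 1108 with spike-in factors and 305 and 773 with its own. No filter gave 224 and 2378, a mean of at least 10 normalized CPM 98 and 700, and limma-voom with surrogate variables 713 and 2281. At an adjusted p below 0.05 both counts were 0 in edgeR with spike-in factors, with or without the block in all 9 samples. They were 2 and 0 with TMM factors, with or without the block, 3 and 0 with gene totals alone, 2 and 26 with the block in XO and XY samples only, 16 and 721 with no filter, 72 and 1510 without XO1, 9 and 411 without the 3 samples numbered 1, and 37 and 1120 without XO1 and XY1. DESeq2 gave 9 and 33 with spike-in factors and 18 and 33 with its own, and limma-voom gave 273 and 1070. Samples did not overlap in 153 and 360 of the called genes, a condition chosen after seeing the data.

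Leaving out single samples or replicate numbers gave 32 to 473 higher and 69 to 3125 lower calls. The counts were 473 and 3125 without XO1, 95 and 627 without XO2, 135 and 257 without XO3, 81 and 516 without XY1, 128 and 296 without XY2, and 125 and 1336 without XY3. Without replicates 1, 2 or 3 of all genotypes they were 221 and 2609, 32 and 69, and 71 and 173. Without XO1 and XY1 but with XX1, chosen after seeing the data, they were 236 and 2846. The causes of these shifts were not tested.

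No gene among the 41 leading ones turned its direction in a fit in which it was tested. Kdm5a, Zfp36l2 and Tbpl2, none of which was called, turned. Zfp36l2 turned to 0.0186 on the log2 scale with the block and TMM factors and to 0.12 with gene totals alone. With single samples left out, Kdm5a ranged from -0.11 to 0.489, Zfp36l2 from -0.567 to 0.12 and Tbpl2 from -0.929 to 0.24. With the spike-in factors, the replicate block in all 9 samples changed no call of a gene named by the rule on the largest differences or by the study. Larp6, with 8 UMIs over the XY samples, is limited by depth.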
